A study of Bos taurus with 6 samples.

Results

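Heat shock proteins and their co-chaperones were followed in the longissimus dorsi, a long muscle of the back, of Japanese Black steers (3 animals) and Holstein steers (3 animals). The Japanese Black is bred for beef with marbled fat, the Holstein mainly for milk. All 6 were males on the same energy-rich feeding, and each gave a single Affymetrix array, so the groups differ by breed and no animals on other feed were analysed here. The labels give no age, and they do not state that the animals came from separate litters or herds. Genes were taken by symbol: the families HSPA, HSPB, HSPD, HSPE, HSPH, HSP90, DNAJ, BAG and CCT, and also CRYAB, TCP1, STIP1, AHSA1, FKBP4 and CHORDC1. This gave 62 genes on 94 probe sets, of 9155 genes with a probe set that names a single gene. No probe set named TCP1 alone, and 1 probe set that lists DNAJC2 beside another gene was left out. Where a gene had several probe sets the brightest stood for it.

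Molecular chaperones bind unfolded or partly folded proteins and keep them from clumping. HSP70 proteins do so in cycles of ATP use that J-domain proteins (the DNAJ families) start and nucleotide exchange factors (the BAG and HSP110 families) end, and HSP90 with its co-chaperones completes the folding of kinases, receptors and, in striated muscle, myosin. Small heat shock proteins hold damaged proteins without using ATP, and in muscle several of them sit at the Z-disc and the contractile filaments. Many of these genes are switched on by heat shock factors when proteins unfold, for example after heat or hard muscle work.

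No chaperone gene differed between the breeds after adjustment for all probe sets tested. The count was 0 of 60 genes past an adjusted p of 0.05 (limma), where 0.0167% of all 18012 probe sets passed. The gene that came nearest was DNAJB5, a J-domain partner of HSP70, which was lower in Japanese Black muscle (adjusted p 0.107). At an unadjusted p under 0.05 there were 6 genes, or 10.0% of 60, against 11.3% of 8050 named genes tested, so the share was near the background. Of these, 4 were toward Japanese Black (DNAJB1, CHORDC1, HSPH1 and HSPA8), where the share over all genes was 5.85%, and 2 toward Holstein (DNAJB5 and HSPB3), where it was 5.44%. The breeds did not overlap for 12 of the 60 genes, against 19.2% of all genes. In 8 of these all Japanese Black animals were above all Holstein animals (10.2% of all genes), and in 4 all were below (8.98%).

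The direction was less even than the calls. Of 60 tested genes 42 had a difference above 0, meaning a higher mean in Japanese Black, which is 70.0%, where 48.7% of all genes did. The median log2 difference was 0.13 over the chaperone genes and -0.01 over all genes. These are differences of log2(signal + 16), Japanese Black minus Holstein, a scale on which dim genes seem to differ less than they do. The remaining 2 of the 62 genes, DNAJC6 and DNAJC22, were among the dimmest 25% of probe sets and were not tested. Their signals lay between 0.37 and 16.3 intensity units in all 6 animals.

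**Figure D1:**
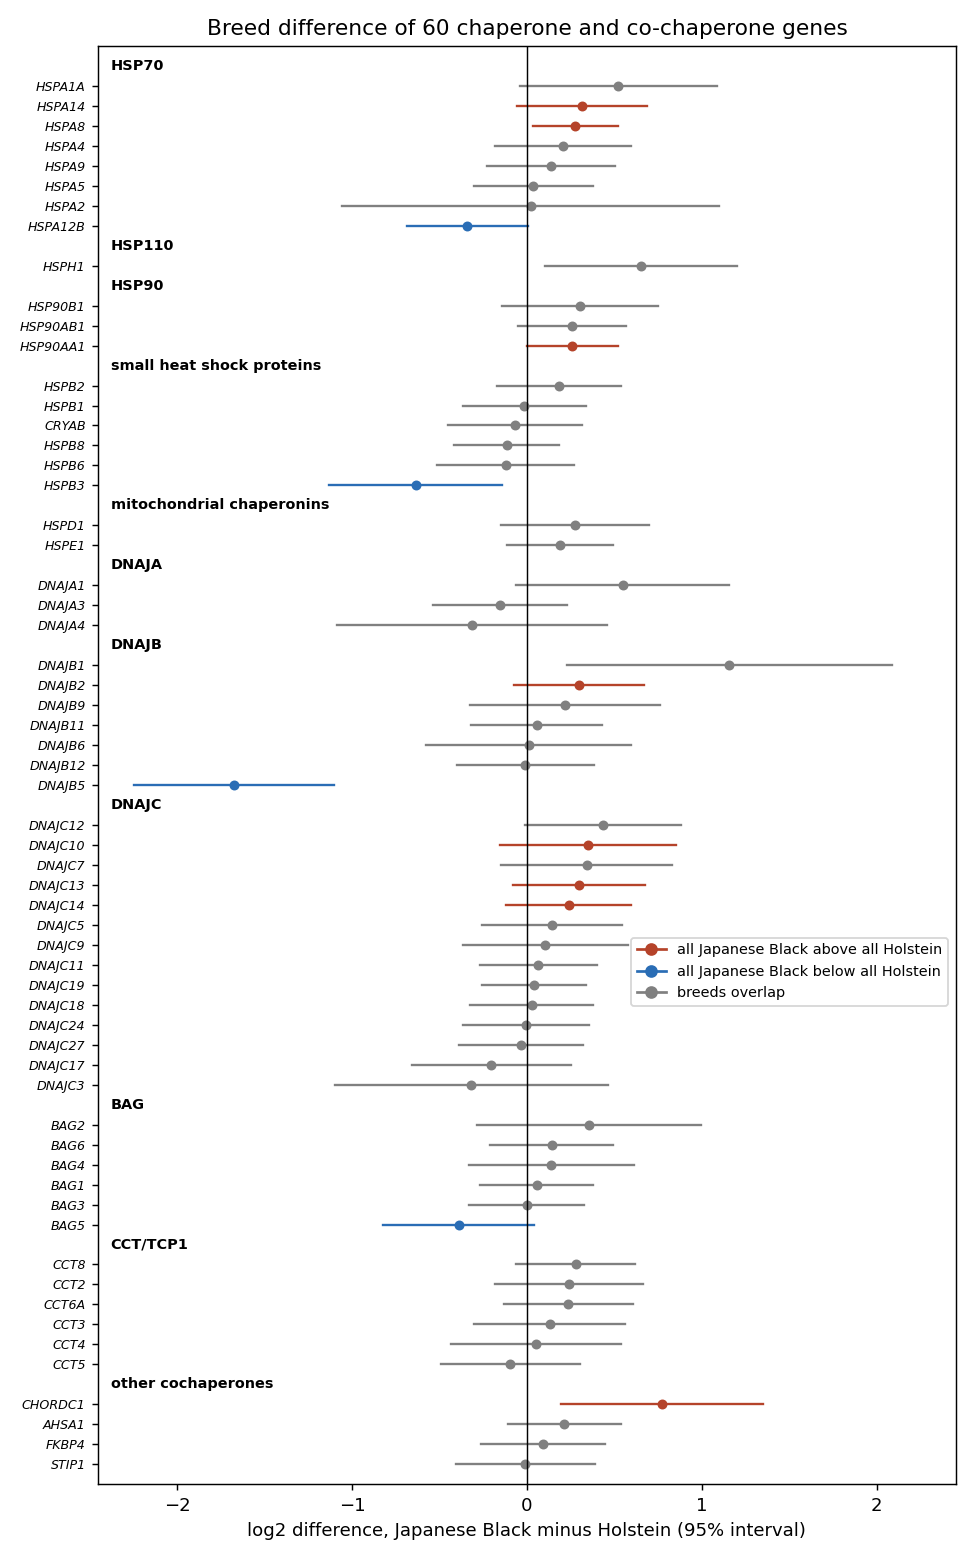
Log2 difference, Japanese Black minus Holstein, of 60 chaperone genes with limma's 95% interval, grouped by class; colour marks whether the animals of the breeds overlap. Most points lie right of 0 by less than their interval, and DNAJB5 stands alone at -1.67.

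The arrays held 24016 probe sets that are not controls, with medians of 48.5 to 54.7 and 247 to 372 probe sets at 0. The labelled tissue was borne out by 14 skeletal muscle fibre markers, none at 0, whose summed signal was 175320 to 184115 in Japanese Black and 177266 to 178460 in Holstein. The bacterial control BioB, added to each sample in a fixed amount, read 273 to 329 in Japanese Black, 319 and 320 in Holstein 1 and 2 and 494 in Holstein 3. The 3′ to 5′ signal ratio of actin, which grows as RNA breaks down, was 1.11 to 1.14 in Japanese Black and at most 1.07 in Holstein. The same ratio of the GAPD control overlapped, at 0.86 to 0.93 in Japanese Black and 0.80 to 0.88 in Holstein. The part of any of these measures in the differences below was not tested. In whole muscle, fewer cells of a type and less RNA per cell cannot be told apart.

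Among the HSPA genes, taken here as the HSP70 class, 7 of 8 had a mean above that of Holstein, with a median log2 difference of 0.17. The class was set by symbol and so includes HSPA4, which is of the HSP110 type. HSPA8, the HSP70 protein that cells keep at hand without stress, read 7458, 8932 and 8833 in Japanese Black and 7103, 6817 and 6833 in Holstein (means 8407 ± 824 and 6918 ± 161, SD, n = 3 each). The breeds were apart, but Japanese Black 1 exceeded Holstein 1 by little. The log2 difference was 0.28 (SE 0.11, adjusted p 0.366), a 1.21-fold difference. HSPA1A, the form induced by stress, read 8490, 9069 and 9542 in Japanese Black against 6304, 4142 and 9458 in Holstein. Its breeds overlapped because Holstein 3 read as high as the Japanese Black animals, and the log2 difference was 0.52 (SE 0.25, adjusted p 0.424). HSPA1A has near-identical gene copies, and this probe set is of a type that can bind several transcripts, so its signal may come from more than 1 copy.

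HSPA12B went the other way. It is a distant HSP70 relative known in mouse and human from endothelial cells, and it read 193, 189 and 188 in Japanese Black and 249, 225 and 261 in Holstein. All Holstein animals were above all Japanese Black animals, with a log2 difference of -0.34 (SE 0.15, adjusted p 0.402). Of 11 endothelial markers on the array 10 were lower on average in Japanese Black, where 4129 of all 8050 genes tested were. Among them were EGFL7 (-0.61) and ROBO4 (-0.65), and 0 passed the adjusted threshold. The markers' summed signal was 2507 to 3822 in Japanese Black and 3518 to 4498 in Holstein, with none at 0. Its part in the HSPA12B difference was not tested.

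HSPA14, which works at the ribosome, was above Holstein in all Japanese Black animals with a log2 difference of 0.32 (SE 0.16). HSPA5, the HSP70 protein of the endoplasmic reticulum, and HSPA9, that of mitochondria, had differences of 0.04 (SE 0.15) and 0.14 (SE 0.16). HSPA4, an exchange factor of the HSP110 type, had 0.21 (SE 0.17). HSPA2, best known from testis, varied most within breeds of all tested members. It read 194, 695 and 547 in Japanese Black and 444, 666 and 240 in Holstein, so the breeds were mixed throughout and the difference was 0.02 (SE 0.48).

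HSPH1, the HSP110 exchange factor that frees HSP70 from its substrates, read 1471, 2732 and 1922 in Japanese Black and 1562, 1006 and 1251 in Holstein. Japanese Black 2 was far the highest and Japanese Black 1 lay within the Holstein range, and the means were 2042 ± 639 in Japanese Black and 1273 ± 279 in Holstein (SD, n = 3 each). The log2 difference was 0.65 (SE 0.24, adjusted p 0.361), or 1.57-fold, and 0.42 without Japanese Black 2. A second, dimmer probe set of HSPH1 ran the other way: it read 139, 101 and 77.0 in Japanese Black and 146, 197 and 208 in Holstein. At that probe set all Holstein animals were above all Japanese Black animals, with a log2 difference of -0.73 (SE 0.23, adjusted p 0.321). The direction for HSPH1 therefore depends on the probe set.

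All 3 HSP90 genes had a mean above that of Holstein, with a median log2 difference of 0.26, and none passed an unadjusted p of 0.05. HSP90AA1, the inducible cytosolic form, read 5210, 6352 and 6082 in Japanese Black and 5082, 4854 and 4754 in Holstein. The breeds did not overlap, and the log2 difference was 0.26 (SE 0.11, adjusted p 0.398). Its dimmer probe set read 2253, 2453 and 1276 in Japanese Black and 1243, 899 and 951 in Holstein, a log2 difference of 0.90 (SE 0.25, adjusted p 0.310). There the animals were again apart, with Japanese Black 3 just above Holstein 1.

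HSP90AB1, the constitutive cytosolic form, read 2782, 3518 and 3535 in Japanese Black and 2765, 2551 and 2854 in Holstein, a difference of 0.26 (SE 0.14). Only Holstein 3 lay within the Japanese Black range. HSP90B1, the form of the endoplasmic reticulum, read 587, 747 and 793 in Japanese Black and 688, 575 and 458 in Holstein, a difference of 0.31 (SE 0.20) with overlap.

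The J-domain proteins held the largest differences of either sign among the members. DNAJB5, a close relative of DNAJB1 known in mouse heart for binding the histone deacetylase HDAC4, read 396, 537 and 414 in Japanese Black against 1452, 1026 and 2072 in Holstein. Every Holstein animal was above every Japanese Black animal with a wide gap, and the means were 449 ± 76.9 in Japanese Black and 1517 ± 526 in Holstein (SD, n = 3 each). The log2 difference was -1.67 (SE 0.25, 95% interval -2.25 to -1.10, unadjusted p 9.83e-05), a 3.19-fold difference, and the adjusted p of 0.107 missed the threshold. Without Holstein 2, the lowest of its breed, the difference was -1.92 and the adjusted p 0.0396 (limma). Without Holstein 3, the highest, the difference was -1.42 and the adjusted p 0.2021. Leaving out any animal other than Holstein 2 gave an adjusted p of 0.1374 to 0.3565, above that of the main fit. The summed signal of 14 immediate early genes, which cells switch on within minutes of a stimulus, was 21429 to 26378 in Japanese Black, 20963 and 24926 in Holstein 1 and 2 and 44531 in Holstein 3. Of these genes 13 were lower on average in Japanese Black, where 4129 of all 8050 genes tested were. None of the 14 passed the adjusted threshold, and their part in the DNAJB5 difference was not tested. Its other probe set was dim in all 6 animals, 2.57 to 14.3, and was not tested.

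DNAJB1, the main stress-induced J-domain partner of HSP70, ran opposite to DNAJB5. It read 1044, 1022 and 1509 in Japanese Black and 414, 299 and 1102 in Holstein. Holstein 3 was within the Japanese Black range and the other Holstein animals were far below. The log2 difference was 1.16 (SE 0.41, adjusted p 0.347), a 2.23-fold difference, with means of 1192 ± 275 in Japanese Black and 605 ± 434 in Holstein (SD, n = 3 each). It was 1.69 without Holstein 3 and 0.78 without Holstein 2. A second probe set gave the same order of breeds, with 699, 501 and 934 in Japanese Black and 171, 118 and 630 in Holstein (1.48, SE 0.51, adjusted p 0.346).

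DNAJB2, which in neurons delivers misfolded proteins to the proteasome, was above Holstein in all Japanese Black animals (0.30, SE 0.16). DNAJB6, which keeps proteins from aggregating and is mutated in a human muscular dystrophy, had a difference of 0.01 (SE 0.26). DNAJB9 and DNAJB11, both of the endoplasmic reticulum, had differences of 0.22 (SE 0.24) and 0.06 (SE 0.17). DNAJB12 had -0.01 (SE 0.17).

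**Figure D2:**
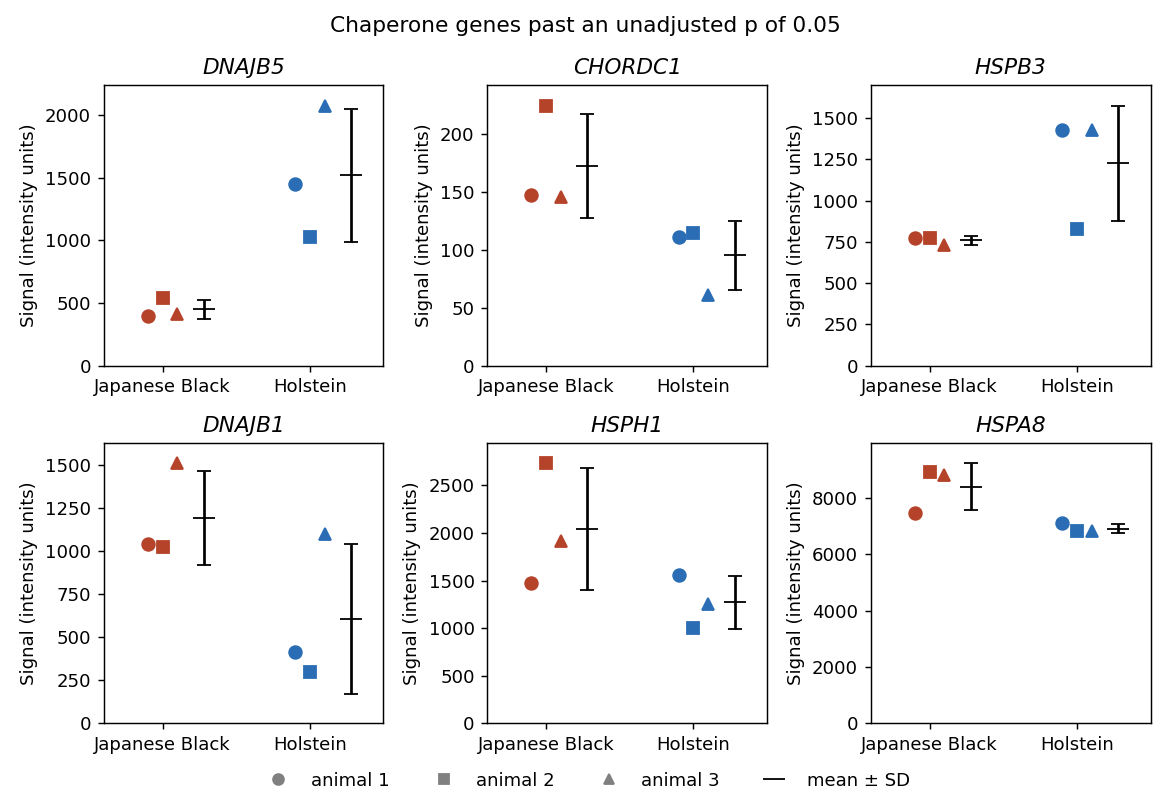
Signal in intensity units of the 6 chaperone genes past an unadjusted p of 0.05, with a point per animal and the mean ± SD (n = 3 per breed) beside the points. Each gene is shown at its brightest probe set. DNAJB5 and HSPB3 lie lower in Japanese Black and the other 4 higher. Holstein 3 is inside the Japanese Black range for DNAJB1, and Holstein 1 for HSPH1.

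In the DNAJA family, DNAJA1, a cytosolic partner of HSP70, read 458, 956 and 653 in Japanese Black and 522, 351 and 485 in Holstein. Japanese Black 2 was the highest and Japanese Black 1 lay inside the Holstein range, with a difference of 0.55 (SE 0.27, adjusted p 0.431). It was 0.29 without Japanese Black 2. DNAJA4 read 616, 1119 and 1354 in Japanese Black and 1305, 794 and 1752 in Holstein. The breeds overlapped and the difference was -0.31 (SE 0.34). DNAJA3, the mitochondrial member, read 249, 256 and 293 in Japanese Black and 274, 276 and 348 in Holstein. Its difference was -0.16 (SE 0.17), again with overlap.

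Of the 14 tested DNAJC genes, a mixed family whose J domains serve many tasks, 10 had a mean above that of Holstein, with a median of 0.09. The smallest p belonged to DNAJC12, a partner of amino acid hydroxylases, at 263, 183 and 278 in Japanese Black and 157, 166 and 193 in Holstein (0.43, SE 0.20, adjusted p 0.405). The breeds overlapped at Japanese Black 2. DNAJC13, which acts on endosomes, read 111, 89.0 and 98.3 in Japanese Black and 88.7, 75.9 and 68.8 in Holstein, a difference of 0.30 (SE 0.17) without overlap.

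DNAJC10, a reductase of the endoplasmic reticulum that breaks wrong disulfide bonds, had all Japanese Black animals above all Holstein animals at each of its 3 probe sets. The log2 differences were 0.35, 0.58 and 0.43, with adjusted p of 0.516, 0.386 and 0.351. DNAJC14 also had no overlap (0.24, SE 0.16). DNAJC3, which restrains the stress kinase PERK, was set apart by a single animal: it read 387 in Holstein 2 and 126 to 189 in the other animals, with a breed difference of -0.32 (SE 0.34). DNAJC19 and DNAJC11, both mitochondrial, had differences of 0.04 (SE 0.13) and 0.07 (SE 0.15). Of the remaining tested members, DNAJC7, which holds HSP70 and HSP90 together, had 0.34 (SE 0.22), DNAJC5, a chaperone of vesicle release in neurons, 0.14 (SE 0.18), and DNAJC9, a histone chaperone, 0.11 (SE 0.21). DNAJC17, DNAJC18, DNAJC24 and DNAJC27 lay between -0.20 and 0.03, and the breeds overlapped for all 7.

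The BAG proteins, which release substrates from HSP70 and link it to degradation, showed no common direction. Of their 6 log2 differences 4 were above 0 and 2 below. Those below were BAG5 and BAG3, and that of BAG3 was only -0.00019. BAG3, which works with HSPB8 to clear damaged filamin at the Z-disc, read 4864, 7064 and 6120 in Japanese Black and 6002, 5576 and 6288 in Holstein. The breeds overlapped fully, and the 95% interval of the difference was -0.33 to 0.33. BAG5 read 143, 226 and 190 in Japanese Black and 250, 231 and 254 in Holstein, without overlap (-0.39, SE 0.19, adjusted p 0.431). BAG2, an inhibitor of the ubiquitin ligase STUB1, read 1703, 3309 and 2022 in Japanese Black and 2242, 1953 and 1237 in Holstein. It was highest in Japanese Black 2, and the breeds overlapped (0.35, SE 0.28). The difference was 0.08 without Japanese Black 2 and 0.10 without Holstein 3. At their brightest probe sets, the differences of BAG1, BAG4 and BAG6 lay between 0.06 and 0.14.

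The small heat shock proteins were the class with the most genes toward Holstein, 5 of 6, with a median of -0.09. HSPB3, a small heat shock protein made mainly in muscle, read 773, 777 and 730 in Japanese Black and 1426, 826 and 1429 in Holstein. The Japanese Black animals were close together and all below Holstein, where Holstein 2 was near them. The means were 760 ± 25.9 in Japanese Black and 1227 ± 347 in Holstein (SD, n = 3 each). The log2 difference was -0.64 (SE 0.22, adjusted p 0.344). It was -0.90 without Holstein 2 and -0.51 without either other Holstein animal.

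HSPB2, which forms a complex with HSPB3 in muscle, read 2147, 2221 and 2169 in Japanese Black and 2182, 1545 and 2090 in Holstein. The breeds overlapped and the difference was 0.18 (SE 0.16). The widely expressed members CRYAB (-0.07, SE 0.17) and HSPB1 (-0.01, SE 0.16) read highest in Japanese Black 2 and lowest in Japanese Black 1. HSPB8 had -0.12 (SE 0.13) and HSPB6 -0.12 (SE 0.17).

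The mitochondrial chaperonin HSPD1 and its lid HSPE1, which are neighbours in the genome, had differences of 0.27 (SE 0.19) and 0.19 (SE 0.13). HSPD1 read 2212, 2904 and 2701 in Japanese Black and 2677, 2133 and 1709 in Holstein. HSPE1 read 2731, 3315 and 3556 in Japanese Black and 2708, 2805 and 2847 in Holstein. Both overlapped. CRYAB and HSPB2 are also neighbours, and their differences were of opposite sign.

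The cytosolic chaperonin, a ring that folds actin and tubulin, was represented by 6 CCT subunits, and 5 had a mean above that of Holstein (median 0.18). CCT8 read 1316, 1709 and 1621 in Japanese Black and 1372, 1228 and 1206 in Holstein (0.28, SE 0.15, adjusted p 0.464). CCT6A read 1103, 1522 and 1372 in Japanese Black and 1225, 1101 and 1035 in Holstein (0.24, SE 0.16). In both genes Japanese Black 1 lay within the Holstein range. CCT2, CCT3 and CCT4 had differences of 0.24, 0.13 and 0.05 with overlap. CCT5 was the subunit with the opposite sign (-0.10, SE 0.18).

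Of the HSP90 co-chaperones taken by name, CHORDC1, which binds HSP90 in its ADP-bound state, read 148, 225 and 146 in Japanese Black and 111, 114 and 61.3 in Holstein. All Japanese Black animals were above all Holstein animals, with means of 173 ± 45.1 and 95.6 ± 29.8 (SD, n = 3 each). The log2 difference was 0.77 (SE 0.25, adjusted p 0.334), a 1.71-fold difference. AHSA1, the activator of the HSP90 ATPase, read 2192, 2689 and 2118 in Japanese Black and 1878, 1947 and 2181 in Holstein. It had a difference of 0.21 (SE 0.14) with overlap at Holstein 3. FKBP4, an immunophilin of steroid receptor complexes, had 0.09 (SE 0.16), and STIP1, the adaptor between HSP70 and HSP90, -0.01 (SE 0.18).

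For the chaperones as a group, the Japanese Black animals differed more among themselves than the breed means did, which were 0.05 and -0.05 log2 units in Japanese Black and Holstein. The mean level of the 60 genes, relative to the mean of all animals, was -0.14, 0.17 and 0.12 log2 units in Japanese Black 1, 2 and 3. It was -0.01, -0.11 and -0.03 in Holstein 1, 2 and 3. The range was 0.31 within Japanese Black and 0.11 within Holstein, and the lowest and the highest animal were both Japanese Black. Over all 8050 genes the same level was -0.07, -0.04 and 0.10 in Japanese Black and between -0.01 and 0.01 in Holstein.

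Japanese Black 2 was the highest animal for 26 of the 60 genes, or 43.3%, where it was highest for 13.0% of all genes. It was highest for 5 of 6 CCT subunits and for all 4 of AHSA1, CHORDC1, FKBP4 and STIP1, but for 1 of 14 DNAJC genes. Japanese Black 1 was the lowest animal for 19 of the 60, or 31.7%, against 19.95% of all genes. The summed signal of adipocyte markers was 6153, 6658 and 22451 in Japanese Black 1, 2 and 3, and 12893, 15381 and 2485 in Holstein 1, 2 and 3. Its part in the order of the animals was not tested.

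**Figure D3:**
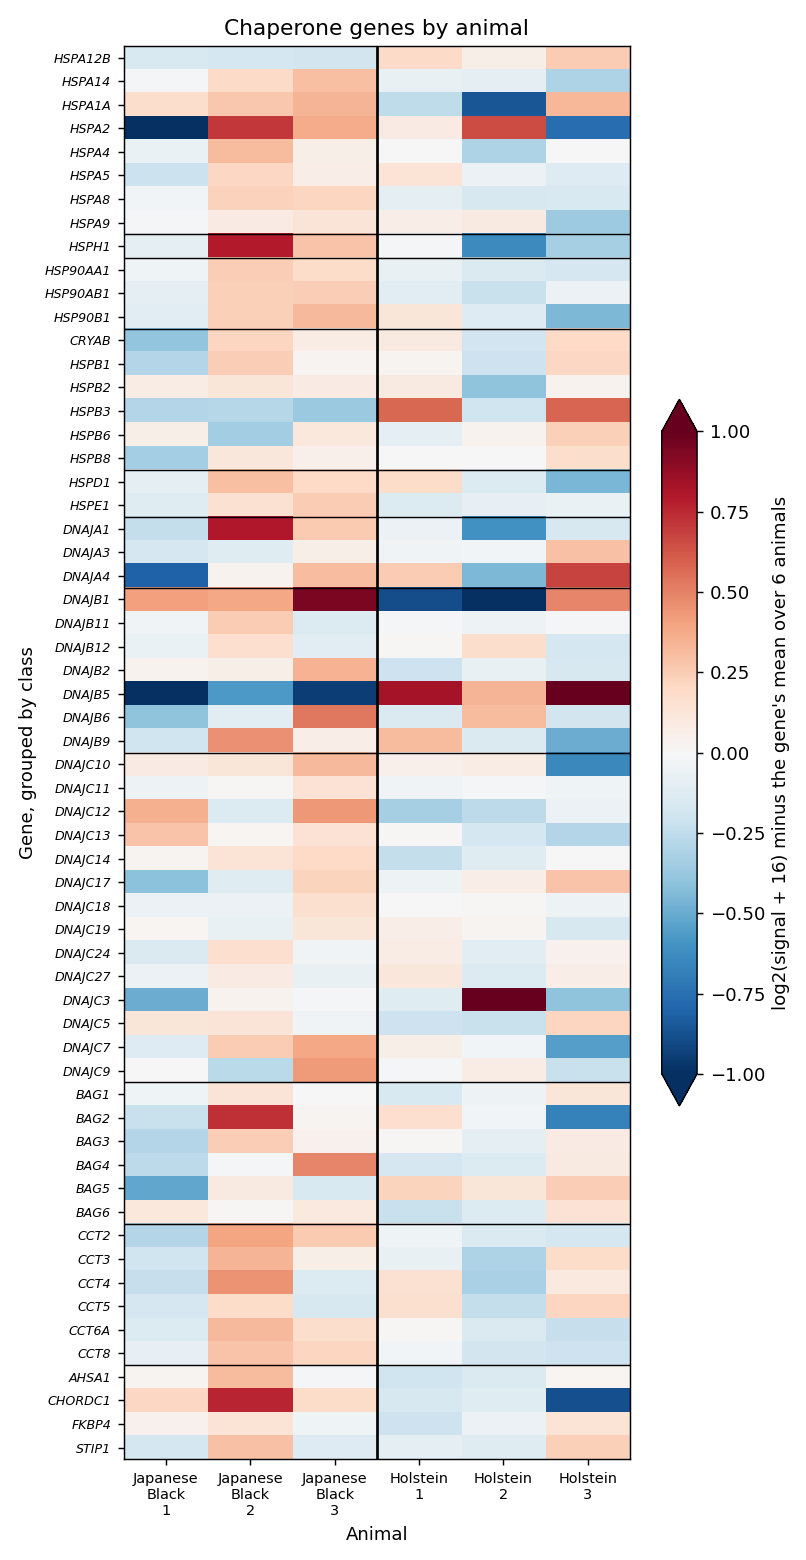
Log2(signal + 16) of each of 60 chaperone genes in each animal, minus the gene's mean over 6 animals, with classes divided by lines red above the mean and blue below it, with colours ending at 1 log2 unit. Japanese Black 2 is the highest animal for 26 genes, and DNAJB5, HSPB3 and HSPA12B are blue in all 3 Japanese Black columns.

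**Figure D4:**
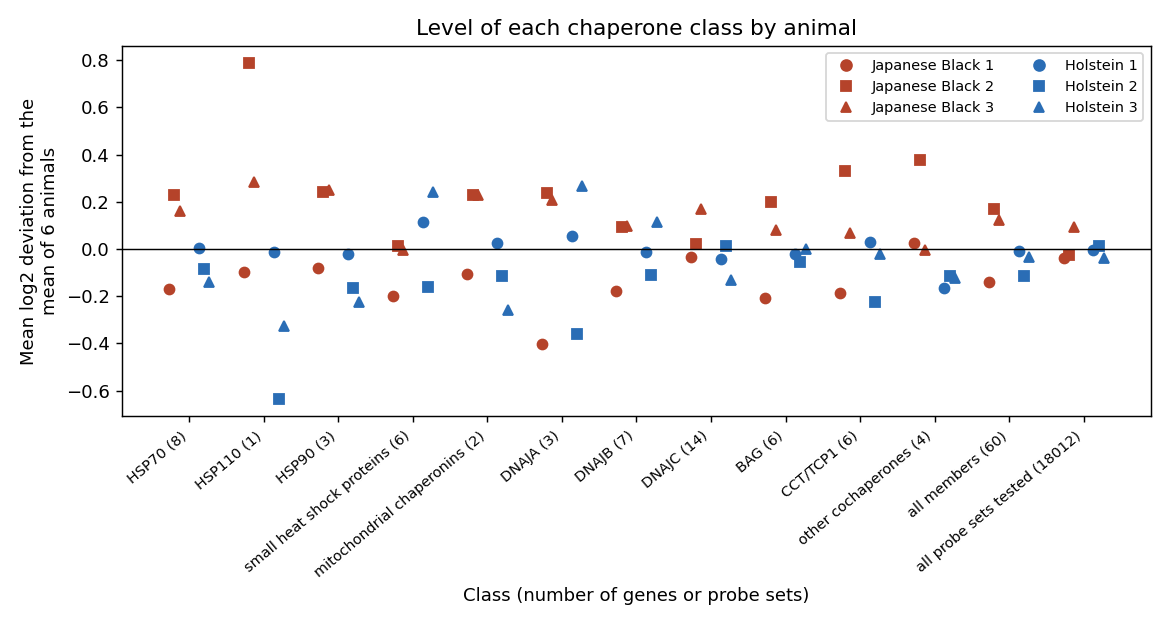
Mean log2 deviation from the mean of 6 animals for each chaperone class, for all 60 genes and for all 18012 probe sets tested, with a point per animal and the number of genes or probe sets in brackets. Japanese Black 1 lies below Japanese Black 2 in every class, and the breeds overlap in every class except the other co-chaperones.

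By class, the level of Japanese Black 1 was below that of Japanese Black 2 in all 11 classes. The gap was widest for HSPH1, from the class with a single gene. The members of the endoplasmic reticulum, 6 in all, had 5 means above Holstein and a median difference of 0.14, with the lowest level, -0.36, in Holstein 3. The 6 mitochondrial members also had 5 above, with a median of 0.10.

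Several probe sets were tested for 17 of the genes. In 12 of them all probe sets had the same sign. HSPH1, HSPA1A, BAG6, DNAJB12 and DNAJC24 had probe sets of both signs. For HSPA1A, 5 of 6 probe sets were above 0 and the other was -0.08. Its probe sets with mean signals of 7542 and 5541 gave 0.30 (SE 0.18) and 0.37 (SE 0.26). Holstein 3 was the highest of all 6 animals in both. At a dimmer probe set, all Japanese Black animals were below all Holstein animals for BAG6 (-0.52), DNAJB12 (-0.55) and HSPB1 (-0.32). Their adjusted p were 0.355, 0.325 and 0.436 (limma). Over all 87 tested probe sets of the members, 13 had an unadjusted p under 0.05, against 12.6% of all probe sets, and 0 passed the adjusted threshold. Probe sets of the same gene were counted separately. No overlap was seen at 20 of the 87, 12 with Japanese Black above and 8 below, against 3568 of all 18012.

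**Figure D5:**
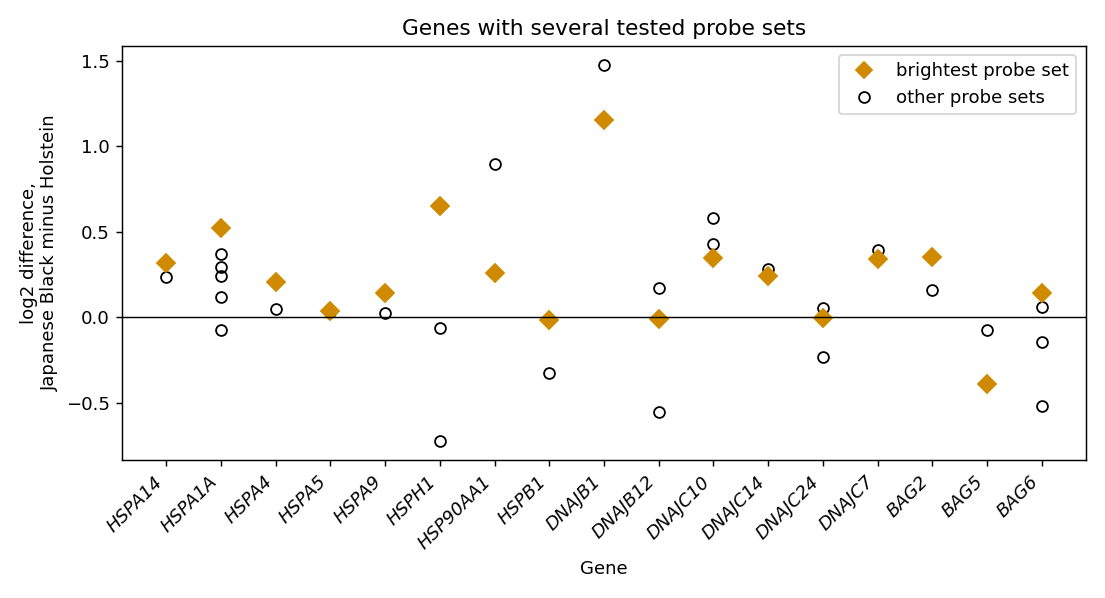
Log2 difference, Japanese Black minus Holstein, at each tested probe set of the 17 genes with several. DNAJB1, HSP90AA1 and DNAJC10 lie above 0 at each probe set, while HSPH1 has its brightest above 0 and the others below.

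The heat shock factors, transcription factors that switch on these genes, did not pass. HSF1, the main factor of the heat response, read 887, 839 and 784 in Japanese Black and 790, 752 and 910 in Holstein (0.04, SE 0.15). HSF2, a factor active in development, read 548, 1065 and 585 in Japanese Black and 1128, 825 and 1136 in Holstein (-0.53, SE 0.26, adjusted p 0.431). Japanese Black 2 was within the Holstein range and the other Japanese Black animals were below it.

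Cofactors of HSP70 and HSP90 outside the named families were represented by 21 genes, of which 12 had a mean above that of Holstein, with a median of 0.11. None passed the adjusted threshold (limma), and 2 had an unadjusted p under 0.05, where 11.3% of all genes did. SUGT1, an HSP90 co-chaperone related to CHORDC1, read 1771, 2320 and 1571 in Japanese Black and 1476, 1386 and 1248 in Holstein (0.44, SE 0.17, adjusted p 0.366). CDC37L1, a relative of the kinase-loading cofactor CDC37, read 589, 862 and 643 in Japanese Black and 555, 549 and 377 in Holstein (0.49, SE 0.21, adjusted p 0.392). Both were apart between breeds, as were 9 of the 21 in all, where 19.2% of all genes were, and 8 of them were above Holstein, where 10.2% of all genes were.

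Genes taken as partners of BAG3 in selective autophagy went mostly toward Holstein, 5 of 7, with a median of -0.14 and 0 past the adjusted threshold. Of all 8050 genes tested, 4129 were lower on average in Japanese Black. FLNC, the muscle filamin that BAG3 clears, read 4378, 6218 and 4081 in Japanese Black and 9517, 5618 and 10924 in Holstein (-0.80, SE 0.25, adjusted p 0.321). The breeds overlapped at Japanese Black 2 and Holstein 2. SQSTM1, an autophagy receptor, read 5149, 5046 and 4779 in Japanese Black and 6328, 5889 and 7006 in Holstein (-0.36, SE 0.11, adjusted p 0.321). SYNPO read 2445, 2356 and 2139 in Japanese Black and 2647, 3449 and 3055 in Holstein (-0.39, SE 0.14, adjusted p 0.347). Both were apart, with every Japanese Black animal below, as in 8.98% of all genes.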

How the data were processed

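Each array is deposited as linear intensity values, 1 for every probe set. The submitters' processing notes name GCOS 1.1.1 and Affymetrix Expression Console 1.1; how probes were summarised and arrays scaled is not given in the sources. The 112 control probe sets were removed, the other signals became log2(signal + 16), and the dimmest 25% by mean were dropped, leaving 18012. Breeds were compared with limma 3.58.1 (R 4.3.3; trended eBayes), and two-sided p-values were adjusted by Benjamini-Hochberg across these probe sets. No rescaling was done, and the number of arrays limits precision. The test was checked on simulated data. Alternatives were other offsets, filters, scalings and variance models, array weights, probe set medians, and leaving out each array. The series design names a paired test, but the labels give no pairs, so the fit is unpaired. If the animals share a source, p-values measure only the spread between these samples. Gene names come from the platform annotation; RefSeq (ARS-UCD2.0) matched the gene ID of 61 of 62 members and served for neighbours. No sequences or coordinates are shown. Members, lists and tests were chosen with earlier results of these data known. Values of every array are given for members past an unadjusted p of 0.05 and, per class, the 2 with the smallest p or all of up to 3, and from the other lists likewise for up to 4. HSPA1A, HSPA2, BAG3, DNAJC3 and the extra probe sets were chosen after their values were seen.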

Additional observations from a re-analysis of the deposited data

How the results depend on the processing

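No paired analysis was possible because no label ties a Japanese Black animal to a Holstein animal. The count of genes past an adjusted p of 0.05 was 0 in all other alternatives and ranged from 0 to 1 when single animals were left out; the 1 was DNAJB5 without Holstein 2. Genes past an unadjusted p of 0.05 were 10 of 60 after quantile normalization, where 12.6% of all probe sets passed, and 3 to 11 with single animals left out, 3 without Holstein 2 and 11 without Japanese Black 1, where 14.6% and 10.4% of all probe sets passed. Genes without overlap were 12 to 24 with single animals left out, 12 without Holstein 2, 21 without Holstein 3 and 24 without Japanese Black 1. Fewer animals make separation easier, and the shares of all genes were 33.8%, 24.4% and 30.6% in that order. The median difference was 0.08 to 0.19 with single animals left out and 0.07 after quantile normalization. After quantile normalization 36 genes were above 0, where 48.8% of all probe sets were. With single animals left out 38 to 50 were above 0, 38 without Japanese Black 2 and 50 without Japanese Black 1. The shares of all probe sets were 53.3% and 54.4% in that order. Of 23 genes followed through the alternatives, 21 kept their direction in all. HSPH1 turned to -0.0627 when its probe sets were combined by their median, and DNAJA4 ran from -0.62 to 0.0122 with single animals left out, above 0 without Japanese Black 1. Other small differences also moved by over 1.5 times. Without Holstein 3, HSP90B1 had 0.16, HSPD1 0.11 and DNAJA3 -0.05, and without Holstein 2, HSPB2 had 0.03. Without Japanese Black 2, CCT6A had 0.14 and AHSA1 0.11, without Japanese Black 1, BAG5 had -0.23, and without Japanese Black 3, HSPE1 had 0.11. The offset of 16 matters most for dim genes: CHORDC1 had 0.57 with an offset of 64 and 0.87 with 1.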

Other observations

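Folding factors that lie beside the heat shock families showed no shared direction. Of 11 prefoldin and chaperonin cofactor genes 6 were above Holstein on average (median 0.01), and URI1, a prefoldin-like protein, read 403, 427 and 381 in Japanese Black and 349, 285 and 203 in Holstein (0.54, SE 0.21, adjusted p 0.362). Of 17 folding and stress genes of the endoplasmic reticulum 8 were above Holstein (median -0.08). DDIT3, a transcription factor induced by stress in that compartment, read 64.3, 114 and 114 in Japanese Black and 143, 160 and 220 in Holstein, without overlap (-0.76, SE 0.24, adjusted p 0.325). SDF2L1, a partner of HSPA5, read 46.1, 74.2 and 88.6 in Japanese Black and 46.3, 41.1 and 29.6 in Holstein (0.62, SE 0.23, adjusted p 0.351), with overlap at Japanese Black 1. CANX, a chaperone for glycoproteins, had all Japanese Black animals above all Holstein animals (0.33, SE 0.14, adjusted p 0.395). Mitochondrial proteases and chaperone partners had 4 of 8 tested genes above Holstein and a median of -0.04.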
